A study of Caenorhabditis elegans with 4 samples.

Results

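The regions described here are autosomal peaks of the zinc finger protein SEA-2 that lie between divergent promoters, where a protein-coding gene starts on each strand and the 2 genes point away from each other. Members were chosen by position alone, from the pooled peak list on build ce11 (the WBcel235 assembly). The summit, the base at which a peak is highest, had to lie between 1000 bp upstream and 200 bp downstream of a transcript start of at least 1 protein-coding gene on the plus strand and at least 1 on the minus strand. The rule was met by 305 of the 3912 pooled peaks, which is 7.80% of the list and 10.2% of its 2980 autosomal peaks. Of the other autosomal peaks, 968 had a protein-coding start in reach on 1 strand only (called one-direction promoter peaks), 305 had starts of RNA genes only and 1402 had none. The other 932 pooled peaks lay on X.

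The data are from chromatin immunoprecipitation with sequencing (ChIP-seq) of whole L3 larvae of Caenorhabditis elegans, in 4 biological replicates of a single group. All worms were of strain OP193, mutant for unc-119 (allele ed3) and carrying the insertion wgIs193, which holds unc-119 and a copy of sea-2 fused to TY1, EGFP and FLAG tags. Males and females were pooled, and no age beyond the larval stage is given. The integrated transgene adds a tagged SEA-2 and an unc-119 gene to unc-119 mutants, the promoter that drives it is not named in the labels, and all cells of the larvae entered the sample. Per the labels, replicates 1 and 2 used worms from the stock centre CGC, with fragments sized at 150 to 350 bp. Replicates 3 and 4 used worms from the study's own laboratory and sonication. Worms without the tagged protein were not analysed here. The labels do not say whether the replicates were grown separately beyond calling them biological, so p-values cover only the spread between these samples.

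In the compact genome of C. elegans, neighbouring genes often share a short intergenic stretch that must serve as the promoter of both. Such divergent promoters are known for housekeeping genes, for histone genes and for some heat shock genes. SEA-2 is known as an autosomal signal in the choice of sex, which weighs X chromosomes against autosomes, and for a part in developmental timing. Many worm messages are trans-spliced, so an annotated start can lie downstream of the site where transcription begins, and distances given here are to annotated starts.

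The final list, kept by the authors after comparison of the replicates, held 312 peaks. These were the 312 peaks with the highest signal values of the pooled list, so being in the final list is a statement of rank. The pooled list was deposited as peaks and background together, the input to that comparison. The members' median −log10 q-value, which is higher for surer peaks, was 0.258, against 0.143 for all pooled peaks. Every final peak had 1.616 or more, so weak members may be background. The signal value is the authors' peak score and its scale is not stated. The replicate lists held 23684, 30000, 30000 and 30000 peaks in replicates 1 to 4, and the read depth behind them is unknown. To compare replicates at equal numbers, the 3912 or the 312 strongest peaks of each were used.

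The sequences at the strongest members outside the first chromosome are shown because the GC content and the short words reported further on are read from them. Each is the 101 bases around the summit on the plus strand of WBcel235, from RefSeq. Capitals mark any match, on either strand, to 6 words that were searched. These were GAGAGA (a GA repeat) and CTGCGTC, then TATAAA (the core of a TATA box) and GGGCGG (the core of a GC box), and lastly TTCNNGAA (a pair of facing units of the heat shock element) and a run of 8 T.
F44E5.5/F44E5.4, chrII:11759393-11759493: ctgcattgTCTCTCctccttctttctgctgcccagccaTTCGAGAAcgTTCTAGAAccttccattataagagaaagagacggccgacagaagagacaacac
rpn-3/hsp-110, chrIII:8447100-8447200: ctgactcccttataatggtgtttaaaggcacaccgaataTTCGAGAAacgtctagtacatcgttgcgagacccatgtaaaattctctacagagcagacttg
Y111B2A.12/epc-1, chrIII:12608756-12608856: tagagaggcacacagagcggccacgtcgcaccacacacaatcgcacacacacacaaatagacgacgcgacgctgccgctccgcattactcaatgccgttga
tasp-1/K01G5.10, chrIII:10759196-10759296: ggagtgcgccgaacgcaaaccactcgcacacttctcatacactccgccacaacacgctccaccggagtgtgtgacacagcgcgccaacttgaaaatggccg
set-16/drr-2, chrIII:13643683-13643783: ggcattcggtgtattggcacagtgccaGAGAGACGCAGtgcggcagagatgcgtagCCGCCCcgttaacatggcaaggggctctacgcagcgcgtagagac
mdt-19/apb-1, chrIII:2597129-2597229: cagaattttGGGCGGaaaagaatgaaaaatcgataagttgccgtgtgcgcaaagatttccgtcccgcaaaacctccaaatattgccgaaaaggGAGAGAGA
tag-340/nhl-2, chrIII:4899918-4900018: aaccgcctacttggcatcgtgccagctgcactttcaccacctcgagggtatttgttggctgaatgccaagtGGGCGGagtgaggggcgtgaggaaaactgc
Y17G9B.5/rpl-20, chrIV:4750008-4750108: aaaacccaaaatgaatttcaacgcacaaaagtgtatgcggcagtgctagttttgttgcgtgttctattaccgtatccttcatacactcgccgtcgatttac
The last sequence is the whole stretch of 220 bases between the starts of hsp-16.41 and hsp-16.2, which encode small heat shock proteins. It is shown because all bases between both starts can be printed. The summit of this peak lies just outside it, 4 bp downstream of the hsp-16.41 start.
hsp-16.41/hsp-16.2 gap, chrV:1804958-1805177: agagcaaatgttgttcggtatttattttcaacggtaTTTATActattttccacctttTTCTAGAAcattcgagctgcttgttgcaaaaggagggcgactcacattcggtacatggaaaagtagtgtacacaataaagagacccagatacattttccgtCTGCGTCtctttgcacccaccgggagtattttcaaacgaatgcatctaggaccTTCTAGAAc
The F44E5.5/F44E5.4 sequence holds TTCNNGAA at 2 places and the hsp-16 stretch also at 2, while the rpn-3/hsp-110 sequence holds it once. The sequences of Y111B2A.12/epc-1, tasp-1/K01G5.10 and Y17G9B.5/rpl-20 hold none of the 6 words. A match is a description of letters and not of a bound site.

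Called peaks were denser in divergent than in one-direction promoters in the pooled list, in the final list and in each replicate. Most of the pooled members did not reach the final list. Windows reached from both strands covered 2.23 Mb, or 9.91% of all autosomal protein-coding promoter windows. They held 137 pooled summits per Mb, against 47.9 per Mb in the 20.2 Mb of one-direction windows, a ratio of 2.86. In the final list the densities were 17.1 per Mb in divergent windows and 4.65 per Mb in one-direction windows, a ratio of 3.67. With the 3912 strongest peaks of each replicate, divergent windows held 116, 69.2, 107 and 78.2 summits per Mb in replicates 1 to 4, and one-direction windows held 47.4, 40.4, 45.7 and 45.6. The groups did not overlap, and the ratios were 2.46, 1.71, 2.33 and 1.71. The mean log2 ratio was 1.02 ± 0.280 (SD, n = 4), above 0 in 4 of 4 replicates, and a two-sided exact sign-flip permutation test gave p = 0.125, the smallest value that 4 replicates allow. The mean was 1.04 for replicates 1 and 2 and 0.999 for replicates 3 and 4.

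The distance to a start differs between both classes of window, so the densities were also matched on the distance to the nearer start, in steps of 100 bp. At the one-direction density, 116.7 pooled summits would have fallen in divergent windows, against the 305 observed, a ratio of 2.61. Over bases outside protein-coding genes the ratio was 2.69, with 225 summits observed. In the replicates the matched mean log2 ratio was 0.92 ± 0.268 over all window bases (SD, n = 4, exact two-sided p = 0.125), and 1.00 ± 0.210 outside genes. The matched ratios over all window bases were 2.27, 1.61, 2.18 and 1.62 in replicates 1 to 4. Each base of a divergent window is in reach of starts on both strands, and the matching leaves the farther start out. Whether the density exceeds that of separate promoters added together was not tested. Within 200 bp of the nearer start and outside genes, the pooled densities were 231 per Mb in divergent windows and 72.0 per Mb in one-direction windows. From 500 to 1000 bp they were 98.7 per Mb in divergent windows and 45.3 per Mb in one-direction windows.

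Members were also among the stronger peaks. The final list held 38 of the 305 members, or 12.5% (exact binomial 95% interval 8.97 to 16.7%, counting error only). Of the 968 one-direction peaks it held 94, or 9.71% (7.92 to 11.8%), and of all pooled peaks 7.98%. The intervals of both promoter classes overlap. Peaks outside any promoter window were in the final list in 4.64% of cases, peaks at RNA gene promoters in 10.5% and peaks on X in 8.91%. The members' signal values ran from 30.2 to 222.6 with a median of 38.1, against a median of 35.5 for one-direction peaks and 35.02 for all pooled peaks. Their median rank was 1324, against 1822.5 for one-direction peaks and 1956.5 overall.

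Inside each replicate, with the rule applied to the replicate's own summits, strong peaks were compared with weaker ones. Peaks meeting the rule made up 12.8, 8.65, 12.5 and 8.97% of the 312 strongest peaks of replicates 1 to 4. They made up 6.08, 3.53, 5.50 and 4.06% of the next 3600 peaks. The share was thus higher among the strongest peaks in 4 of 4 replicates, and the lowest share among strong peaks, 8.65%, was above the highest among weaker peaks, 6.08%. The mean shares were 10.7 ± 2.23% and 4.79 ± 1.20% (SD, n = 4 each), a difference of 5.95 ± 1.07 percentage points (exact two-sided sign-flip permutation p = 0.125, the smallest possible). It was 5.93 points in replicates 1 and 2 and 5.96 points in replicates 3 and 4. One-direction peaks also made up more of the strongest peaks, with 29.5, 25.3, 30.4 and 28.5% of the 312 strongest and 24.1, 20.5, 23.0 and 23.2% of the next 3600. The ratio of both shares was 2.11, 2.45, 2.27 and 2.21 for divergent promoters and 1.23, 1.24, 1.32 and 1.23 for one-direction promoters. The log2 ratios differed by 0.85 ± 0.098 (SD, n = 4), in the same direction in 4 of 4 replicates (exact two-sided permutation p = 0.125, the smallest possible). Replicates 1 and 3 had higher shares than replicates 2 and 4, and each of these pairs spans both worm sources.

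**Figure D1:**
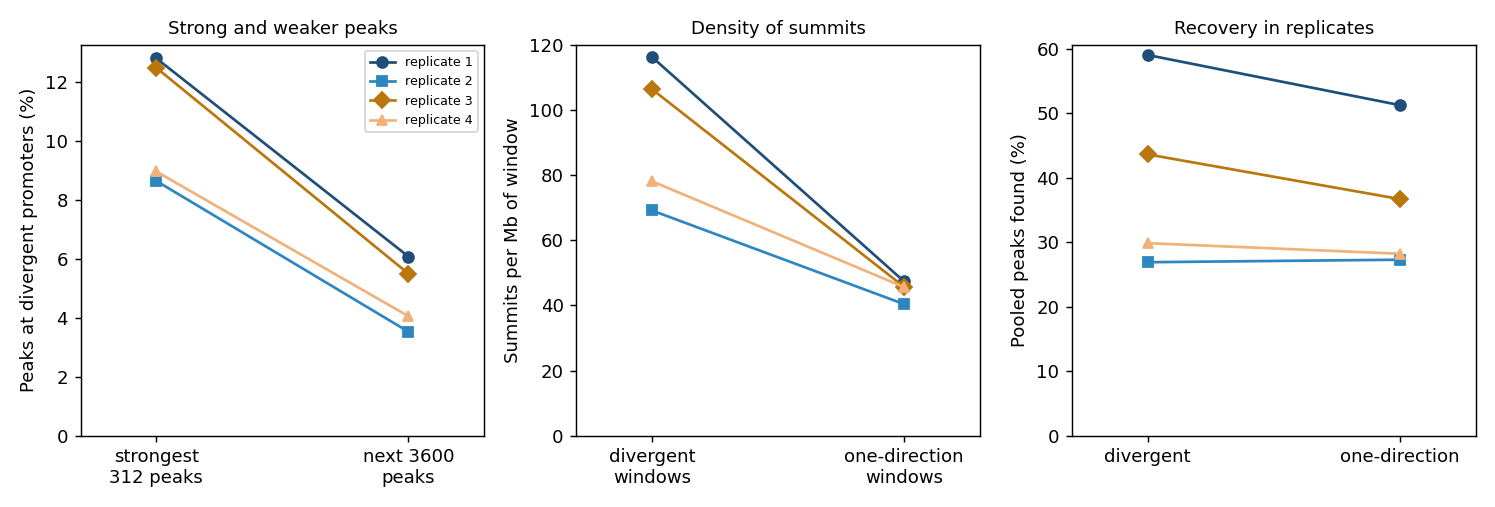
The panels compare the 4 replicates, each drawn as a marker of its own with a line joining its 2 values. The left panel gives the percentage of peaks at divergent promoters among the 312 strongest and the next 3600 peaks, the middle panel summits per Mb of window, and the right panel the percentage of pooled peaks found; lines fall from left to right in all replicates in the first 2 panels, and in 3 of 4 in the third.

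Recovery of pooled members in single replicates differed less. A member counted as found when its summit lay inside 1 of the 3912 strongest peaks of a replicate. This held for 180 members (59.0%) in replicate 1, where 48.3% of all pooled peaks were found, and for 82 (26.9%) in replicate 2, against 25.3%. It held for 133 (43.6%) in replicate 3, against 32.8%, and for 91 (29.8%) in replicate 4, against 25.9%. One-direction peaks were found in 51.2, 27.3, 36.7 and 28.2% of cases. The difference between members and one-direction peaks was 3.99 ± 3.99 points (SD, n = 4), above 0 in 3 of 4 replicates (exact two-sided permutation p = 0.25), so it was no larger than the spread between replicates. Replicates 1 and 2 had a mean difference of 3.69 points and replicates 3 and 4 of 4.28 points. The pooled list was called from these replicates, so recovery is not independent of it.

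Of the 305 members, 22 (7.21%) were found in all 4 replicates, against 5.79% of one-direction peaks and 4.93% of all pooled peaks. A further 32 were found in 3 replicates, 92 in 2, 118 in 1 and 41 in none. Replicate 1 alone accounted for 64 of the 118. Of the 38 members in the final list, 21 were found in all 4 replicates and 13 in 3. Among only the 312 strongest peaks of each replicate, 5 members (1.64%) were found in all 4, against 1.03% of one-direction peaks and 0.844% of all pooled peaks. These 5 were the peaks of F44E5.5/F44E5.4, rpn-3/hsp-110, his-68/his-67, Y111B2A.12/epc-1 and tasp-1/K01G5.10.

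The strongest member lay between F44E5.5 and F44E5.4, which encode Hsp70 family chaperones, at chrII:11759305-11759573. Its signal value was 222.6, the second highest of the pooled list. It ranked 1, 1, 1 and 74 among the peaks of replicates 1 to 4, with replicate signal values of 106.7, 85.8, 76.9 and 19.3, so replicate 4 stood apart. The starts are 351 bp apart and the summit was 219 bp upstream of F44E5.5 and 132 bp upstream of F44E5.4. This peak was 269 bp wide and the only member narrower than the usual 340 bp. A stretch of 117 bp of it has an inverted copy with 93.2% identity at chrII:11759543-11759658, which overlaps the end of the peak, so reads there may not be placed to a single site.

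The second strongest member, at chrIII:8446980-8447319, joined rpn-3, a subunit of the proteasome's regulatory particle, and hsp-110, a partner chaperone of Hsp70. Its signal value was 142.7 and its replicate ranks were 60, 86, 6 and 6, higher in the list in replicates 3 and 4. The summit was nearly central, 203 bp upstream of rpn-3 and 241 bp upstream of hsp-110. The small heat shock genes hsp-16.41 and hsp-16.2 flanked a peak at chrV:1805012-1805351 with a signal value of 80.7 and replicate ranks of 96, 528, 201 and 238. Its summit lay 4 bp downstream of the hsp-16.41 start, in the 5′ UTR. In the list of chaperones, heat shock and unfolded protein response, hsp-110, hsp-16.41 and hsp-16.2 were the 3 genes with a final peak. F44E5.5 and F44E5.4 were not in that list, which was built by gene symbol. Of the list's 35 autosomal genes with a divergent window, 12 (34.3%) held a member, against 11.2% of all 5507 such genes. The others were the chaperonin genes cct-1, cct-4, cct-5, cct-6 and cct-7, the J-domain genes dnj-1 and dnj-13, hsp-60 and hsp-90, with signal values from 31.4 (cct-6) to 56.2 (hsp-90).

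Histone genes, many of which lie in divergent pairs, had members at 11 of 66 genes with a divergent window (16.7%), in 6 peaks. The share over all genes with such a window was 11.2%. The strongest lay between his-68 and his-67 on chromosome I, from 9988792 to 9989131, with a signal value of 139.7 and replicate ranks of 12, 50, 32 and 13. All 4 replicates thus placed it among their 50 strongest peaks. The start of alg-5, which encodes an Argonaute protein, was also in reach, 840 bp away. The other histone pairs were his-62/his-61 with a signal value of 53.02, his-32/his-31 with 50.2, his-59/his-60 with 47.6 and his-41/his-35 with 40.7. The variant H2A.Z gene htz-1 shared a peak of 47.2 with wapl-1. Worm histone genes are near-identical copies, so reads at them are uncertain. A stretch of 52 bp at his-62/his-61 matched the his-68/his-67 peak with 90.4% identity, so these 2 members share sequence. A stretch of 94 bp at his-59/his-60 matched a place near his-50 with 91.5% identity.

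The peak between Y111B2A.12 and epc-1, a homologue of Enhancer of Polycomb, at chrIII:12608636-12608975, had a signal value of 135.6 and replicate ranks of 32, 53, 10 and 40. The peak between set-16, a histone H3 lysine 4 methyltransferase of the MLL family, and drr-2, a translation factor, had a signal value of 124.8. Its ranks were 18, 38, 21 and 1892, so it was strong in 3 replicates and weak in replicate 4. The peak of mdt-19, a Mediator subunit, and apb-1, an adaptin, had 108.8, with ranks of 28, 384, 45 and 25. The genes epc-1, mdt-19 and apb-1 are in none of the gene lists. Of 30 genes of the list of chromatin remodelling and histone modification with a divergent window, 8 (26.7%) held a member, against 11.2% of all such genes. In the final list there were 3 of them. Beside set-16 these were mrg-1 (a chromodomain protein, 65.7, shared with spcs-2) and set-26 (a SET domain protein, 65.7, shared with tsr-2). The mrg-1 peak ranked 491, 238, 7043 and 288, and the set-26 peak 358, 5413, 422 and 392, so in each peak 1 replicate was far down. The peak of ceh-38, a ONECUT homeobox gene, and malt-1 had 87.2, and its ranks were 88, 39, 980 and 91.

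Cytosolic ribosomal protein genes held a member at 14 of 51 genes with a divergent window (27.5%), against 11.2% of all such genes. Each had a peak of its own, and 4 were in the final list. The peak of rpl-20 and Y17G9B.5 had a signal value of 101.5 and ranks of 9, 1703, 37 and 169, the lowest place being in replicate 2. That of rps-1 and ifet-1, a repressor of translation, had 87.5 with ranks of 122, 94, 231 and 1390. That of rpl-15 and K11H12.8 had 83.2 with ranks of 93, 131, 308 and 370, and that of rps-19 and hsr-9 had 68.5 with ranks of 282, 9464, 987 and 505. The other 10 ribosomal protein genes had pooled peaks with signal values from 33.8 (rps-20) to 56.2 (rpl-2). Mitochondrial ribosomal protein genes held a member at 7 of 30 (23.3%), and translation factors and tRNA synthetases at 9 of 37 (24.3%), with no final peak in either list. The pair trap-3 and sec-61.B, in none of the gene lists and both of the machinery that takes proteins into the endoplasmic reticulum, had a peak of 100.5 with ranks of 43, 81, 61 and 4825.

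The lists of splicing and of developmental timing (heterochronic) genes each had a single peak in the final list. The splicing factor genes rsp-1 and rsp-2 shared a peak of 82.1, with ranks of 47, 353, 157 and 140. Of the splicing list, 7 of 33 genes with a divergent window (21.2%) held a member, against 11.2% of all such genes. The peak between tag-340 and nhl-2, a cofactor of microRNA silencing that acts in developmental timing, had 102.6, with ranks of 26, 29, 40 and 767 and starts 1423 bp apart. Of the heterochronic list, only 3 genes had a divergent window, and nhl-2 and lin-46 held a member, against 11.2% of all such genes. With 3 genes the share says little. The nhl-2 summit was 883 bp upstream of nhl-2 and 540 bp upstream of tag-340. The lin-46 peak had a signal value of 33.7 and pooled rank 2340, and was found in 1 replicate. Its summit lay 860 bp upstream of lin-46 and 13 bp upstream of R186.8. A stretch of 144 bp of it had a copy near bbs-5 with 97.2% identity. Among other strong pairs, tasp-1/K01G5.10 had a signal value of 133.8 with ranks of 7, 204, 114 and 23. The peak of cls-2, a microtubule-binding protein, and R107.5 had 94.7 with ranks of 375, 7, 16 and 113. The peak of M117.3 and par-5, a 14-3-3 protein of cell polarity, had 93.0 with ranks of 514, 33, 152 and 64. The order of these 3 peaks differed between replicates, and all their ranks were 514 or better.

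**Figure D2:**
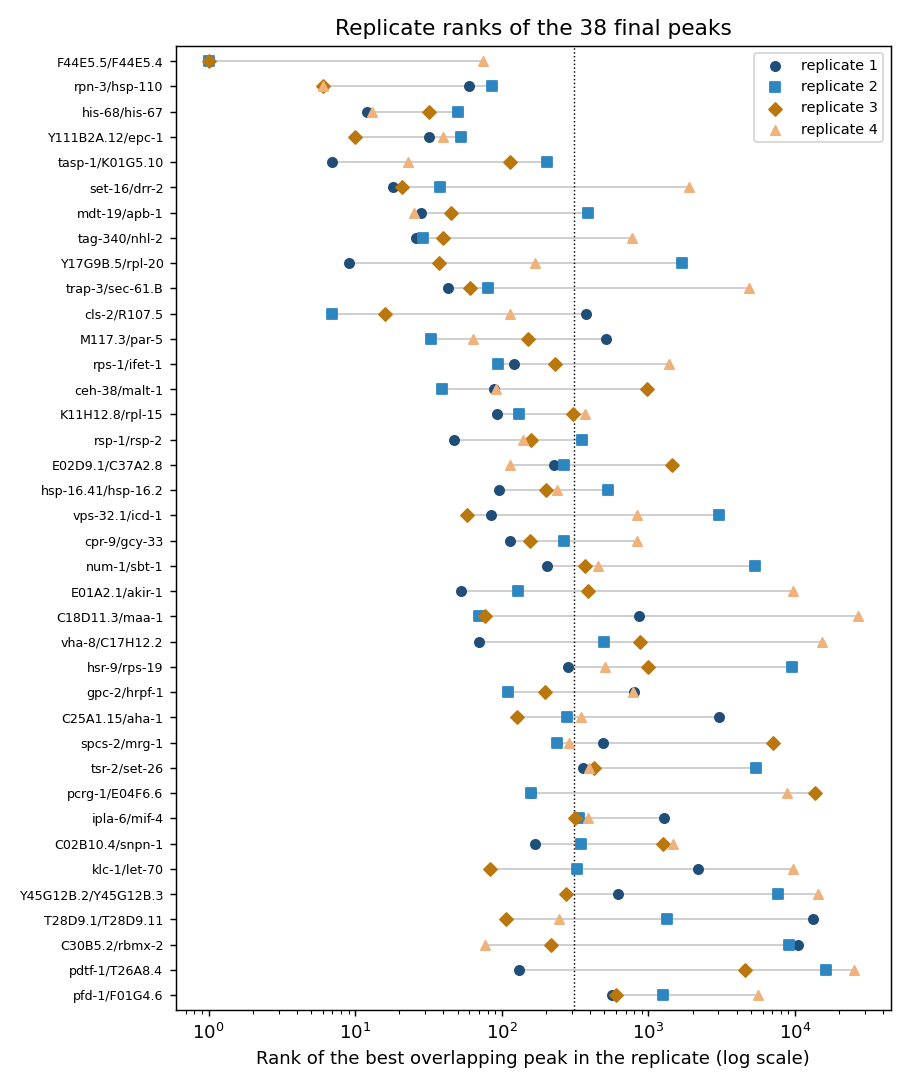
Each row is 1 of the 38 members in the final list, ordered by pooled signal value, and each marker is the rank of the strongest overlapping peak in a replicate on a log axis, 1 being the strongest. The dotted line marks rank 312; 5 rows at the top lie wholly to its left, and each row below has at least 1 marker to its right, with a spread that varies from row to row.

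Some final members varied widely between replicates. The first 4 peaks named here are among the 5 final members picked for the widest spread of ranks, so their spread follows from that choice. The other of the 5, Y17G9B.5/rpl-20, ranked 9 among the members by signal value. Whether the spread depends on peak strength was not tested. The peak of vha-8, a subunit of the vacuolar proton pump, and C17H12.2 ranked 70, 497, 880 and 15319. The peak of akir-1, an akirin, and E01A2.1 ranked 53, 128, 390 and 9640. The peak of C18D11.3 and maa-1 ranked 861, 70, 77 and 26873. That of pdtf-1 and T26A8.4 ranked 131, 16377, 4540 and 25387. In these 4 peaks replicate 4 had the last rank. Distances between starts are taken between the transcript starts nearest to the summit. They were 145 bp apart for this pdtf-1/T26A8.4 peak, and 1545 bp apart for a second pooled member at the same pair. The peak of C30B5.2 and rbmx-2 ranked 10478, 9084, 216 and 77, so it was within the 312 strongest peaks only in replicates 3 and 4. Over all members, 15 were found in replicates 1 and 2 alone and 14 in replicates 3 and 4 alone. The final members with the longest distance between starts, beside tag-340/nhl-2, were ipla-6/mif-4 with 1659 bp and klc-1/let-70 with 1482 bp. The first had a signal value of 64.0 with ranks of 1272, 337, 316 and 384. The second, at genes for a kinesin light chain and a ubiquitin-conjugating enzyme, had 63.03 with ranks of 2177, 324, 83 and 9604. The shortest distances were 145 bp at pdtf-1/T26A8.4, 221 bp at hsp-16.41/hsp-16.2 and 232 bp at C30B5.2/rbmx-2. The last member inside the final list, pfd-1/F01G4.6, had a signal value of 58.0, and the first outside it, nog-1/T07A9.15, had 56.5.

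Of all 5507 autosomal genes with a divergent window, 11.2% held a member. Proteasome genes held a member at 7 of 30 (23.3%), cell cycle and replication genes at 11 of 33 (33.3%) and respiration genes at 4 of 27 (14.8%). Of these 3 lists, rpn-3 alone had a final peak. Vacuolar proton pump genes held a member at 2 of 9 (22.2%) and homeobox genes at 1 of 9 (11.1%), and vha-8 and ceh-38 had final peaks. The respiration and homeobox shares were near the share over all such genes. The cell cycle members included cye-1, the cyclin E gene (41.9), air-1, an Aurora kinase (45.3), and orc-1, of the origin recognition complex (36.8). Families known for use in few cells or in bursts were counted too. Nuclear hormone receptor genes held a member at 1 of 45 (2.22%), namely nhr-68, collagen genes at 3 of 46 (6.52%) and chemoreceptor genes at 5 of 298 (1.68%), with none in the final list. Lists were described without a test, because they were chosen with earlier results of these data known.

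The geometry of the members is partly fixed by the window. The starts were a median of 538 bp apart (interquartile range 302 to 814 bp), and the summit lay a median of 134 bp from the nearer start and 399 bp from the farther one. One-direction peaks had a median of 285.5 bp to their start. In the replicates the median distance to the nearer start was 130, 153.5, 140 and 132 bp at divergent promoters and 296.5, 305, 318.5 and 329 bp at one-direction promoters, a difference of -173 ± 19.2 bp (SD, n = 4). With starts on both sides the nearer one is closer by the rule itself, and the size follows the window, so the difference is a description without a test. The summit was upstream of both starts in 251 members (82.3%) and downstream of one of them in 54. It was nearer to the plus-strand gene in 156 members and to the minus-strand gene in 149. Where it was upstream of both starts, it lay at a median of 0.322 of the way from the nearer start to the farther one (n = 251). In the final list the corresponding medians were 597.5 bp between starts, 172.5 bp to the nearer start and 443.5 bp to the farther one.

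**Figure D3:**
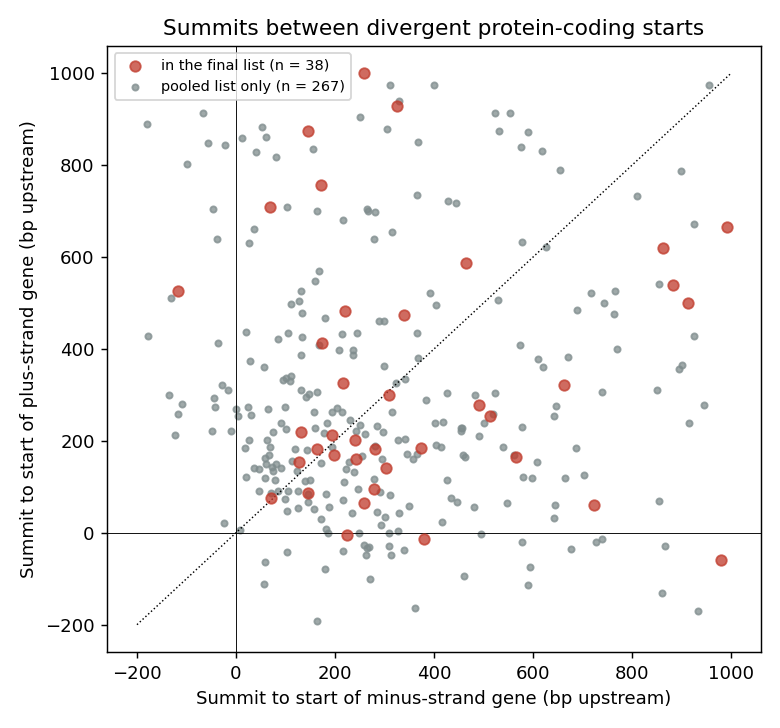
Each point is a member, placed by the distance of its summit upstream of the minus-strand start (horizontal axis, bp) and upstream of the plus-strand start (vertical axis, bp), with negative values downstream. The 38 members in the final list are red and the 267 others grey; most points lie above 0 on both axes, 251 in all, and they fall on both sides of the dotted line of equal distance.

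At the edge of the rule, the members with the largest distance to the farther start were cls-2/R107.5 at 1000 bp, ipla-6/mif-4 at 993 bp and C18D11.3/maa-1 at 981 bp. The first peaks outside it were at pbrm-1/T28F4.4 with 1004 bp and a signal value of 66.4, ints-4/W09C5.12 with 1019 bp and 39.6, and cox-5B/tba-1 with 1020 bp and 61.2. There were 19 peaks with the farther start 901 to 1000 bp away and 17 with it 1001 to 1100 bp away, so membership ends in the middle of a continuous range.

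Seen from the genes, 2382 autosomal head-to-head pairs had starts at most 2000 bp apart, and 233 of them (9.78%, exact 95% interval 8.62 to 11.0%) had a member between the starts. The share was 7.76% for pairs under 250 bp apart (28 of 361), 13.6% from 250 to 499 bp (70 of 515), 11.9% from 500 to 999 bp (94 of 789) and 5.72% from 1000 to 2000 bp (41 of 717). Per length the order was different. The density was 476 summits per Mb in the shortest stretches, then 370, 168 and 40.1 per Mb. In the longest class the window leaves part of the stretch out of reach of 1 start, which lowers both values. Pairs with a member had a median distance of 600 bp and the 2149 pairs without one had 669 bp.

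**Figure D4:**
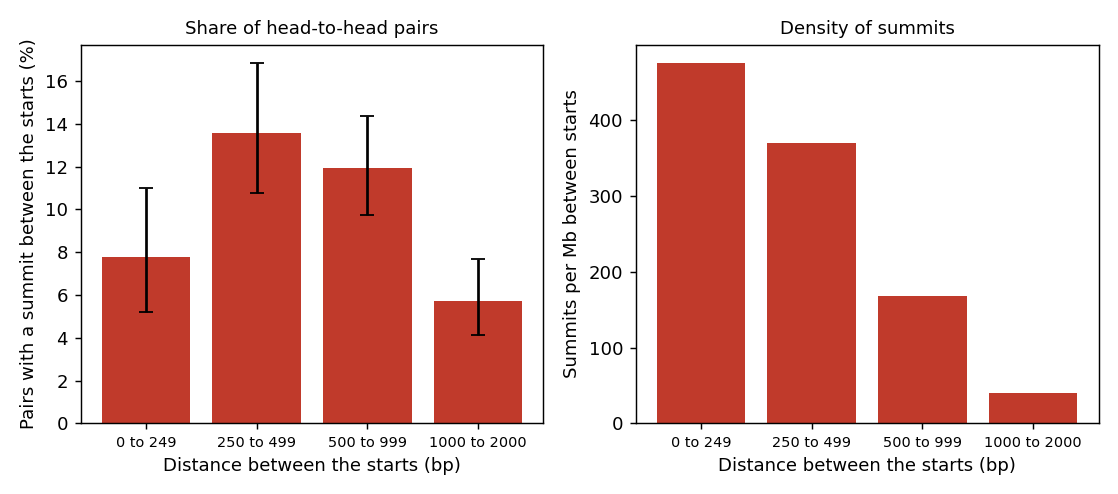
The left panel gives the percentage of head-to-head gene pairs with a member between their starts, by the distance between the starts, with exact 95% binomial intervals that cover counting error only. The right panel gives summits per Mb of the same stretches, which falls from 476 to 40.1 per Mb across the 4 distance classes, while the share of pairs is highest at 250 to 499 bp.

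The 305 members belonged to 300 distinct pairs of nearest genes, 295 with 1 peak and 5 with 2. In all, 618 protein-coding genes had a member in their window, and 77 of them a final member. Summits lay outside protein-coding transcripts in 225 members (73.8%, exact 95% interval 68.5 to 78.6%), against 542 of 968 one-direction peaks (56.0%, 52.8 to 59.1%). Bases outside protein-coding genes made up 54.8% of divergent windows and 44.3% of one-direction windows. Summits lay in an intron in 25 members (8.20%), against 20.5% of one-direction peaks. They lay in a coding exon in 23 (7.54%), against 14.2%, and in a 5′ UTR in 30 (9.84%), against 5.79%. Chromosome III held 77 members, 12.4% of its pooled peaks, and chromosome V held 44, or 8.45%. Chromosomes I, II and IV held 76, 58 and 50.

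An RNA gene started in the same window at 52 members (17.05%). This was the case for 15 of the 38 final members (39.5%), among them rpn-3/hsp-110, Y111B2A.12/epc-1, tag-340/nhl-2 and rps-1/ifet-1. No such share is given here for one-direction peaks or for divergent windows without a peak. Whether it is particular to members was therefore not tested. By type, 40 members had a gene annotated only as ncRNA, 13 a snoRNA gene, which guides modification of ribosomal RNA, and 3 a tRNA gene. At these members a summit cannot be assigned to the protein-coding or to the RNA gene.

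Base composition changed over a short distance at the members. The 101 bp around the summit had a mean GC content of 41.7%, against 35.7% in windows 250 bp to each side, and 206 of 305 summits were above their flanks. In the final list the summit had 49.2% and the flanks 35.4%, and 34 of 38 summits were above. One-direction peaks had 41.5% and 36.2%, and those in the final list 50.03% and 37.9%. The midpoints of 2047 head-to-head stretches with no pooled peak had 34.1%, close to their own flanks at 35.2%. In the replicates the excess at the summit was 4.94, 8.89, 3.17 and 3.18 points at divergent promoters, and 3.23, 6.53, 2.55 and 2.30 points at one-direction promoters. The difference of 1.39 ± 0.798 points was positive in 4 of 4 replicates (exact two-sided permutation p = 0.125, the smallest possible). It was 2.04 points in replicates 1 and 2 and 0.75 points in replicates 3 and 4. The size depended on the settings. It was -0.17 points with flanks 500 bp away, 0.51 points with 100 bp to each side (exact p = 0.375), 0.40 ± 1.36 points with a window of 500 bp upstream (exact p = 0.75) and 0.77 points with 2000 bp upstream.

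**Figure D5:**
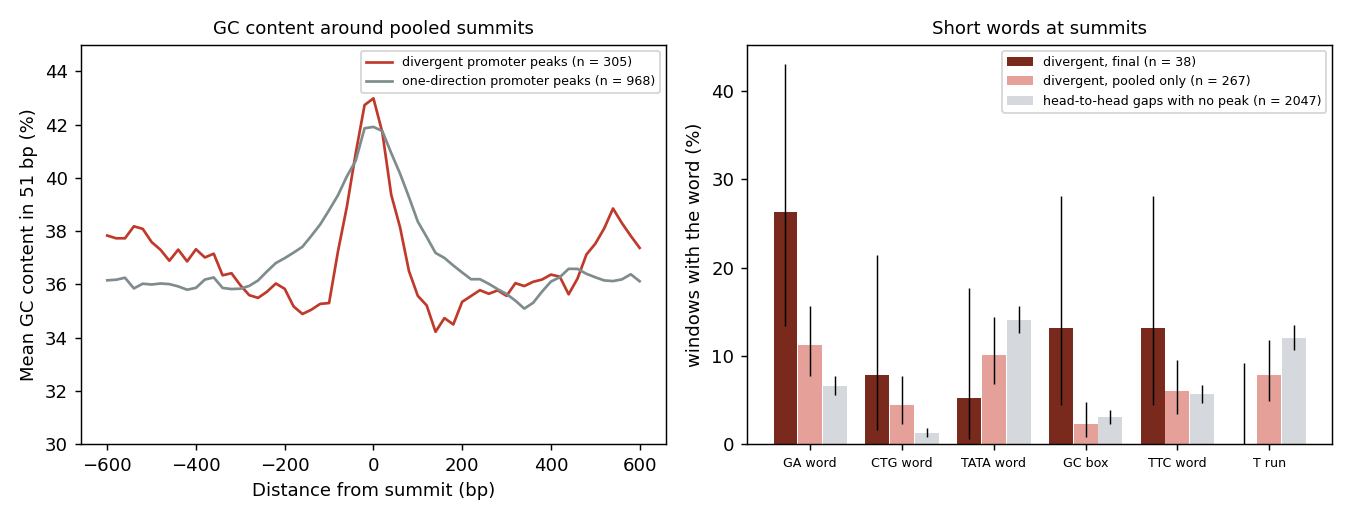
The left panel gives the mean GC content in 51 bp windows by distance from the summit for the 305 members (red) and 968 one-direction peaks (grey); both rise at the summit, and the rise is narrower for members. The right panel gives the percentage of 101 bp windows holding each of the 6 words, named by their first letters or kind, in final members, other members and empty head-to-head stretches, with exact 95% intervals for counting error.

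The GA repeat word GAGAGA was read on both strands, at 40 of 305 member summits (13.1%), against 7.05% of their flanks. It was at 10 of 38 final members (26.3%), including F44E5.5/F44E5.4, set-16/drr-2 and mdt-19/apb-1. One-direction peaks had it more often in the pooled list, at 198 of 968 (20.5%), and in the final list, at 38 of 94 (40.4%). In the replicates' own peaks the shares were 13.9, 18.8, 16.03 and 10.3% at divergent promoters and 14.3, 19.1, 16.2 and 11.2% at one-direction promoters. The difference was -0.42 ± 0.276 points, negative in 4 of 4 replicates (exact two-sided permutation p = 0.125). It depended on the window, with -2.99 ± 2.31 points at 500 bp upstream (exact p = 0.125), 0.064 points at 2000 bp upstream and -0.88 points when 100 bp to each side of the summit were read. Empty head-to-head midpoints had the word in 6.60% of cases.

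The other words were described without a test. CTGCGTC was at 15 members (4.92%), against 0.820% of flanks, 7.23% of one-direction peaks and 1.27% of empty midpoints. TTCNNGAA was at 21 members (6.89%), close to their flanks at 7.05%, and at 5 of 38 final members (13.2%), against 5 of 94 final one-direction peaks (5.32%). GGGCGG was at 11 members (3.61%), against 4.24% of one-direction peaks and 3.03% of empty midpoints. It was at 5 of 38 final members (13.2%, exact 95% interval 4.41 to 28.1%), among them set-16/drr-2, mdt-19/apb-1 and tag-340/nhl-2. Final one-direction peaks had it at 8 of 94 (8.51%, 3.75 to 16.1%). TATAAA was at 9.51% of members and 8.37% of one-direction peaks, against 14.02% of empty midpoints. A run of 8 T was at 6.89% of members and 5.27% of one-direction peaks, against 12.1% of empty midpoints. It was at none of the 38 final members (upper 95% limit 9.25%) and at none of the 94 final one-direction peaks.

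Few members had a second copy elsewhere. Of 305 members, 15 (4.92%) matched another place in the genome over at least 50 bp at 90% identity or more, or were matched so by another promoter peak, against 62 of 968 one-direction peaks (6.40%). In the final list these were F44E5.5/F44E5.4, his-68/his-67 and cpr-9/gcy-33. Without the members that have a copy, 12.1% were in the final list.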

How the data were processed

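Per the labels and the deposited file records, each of the 4 replicates had its own peak list, called against 1 shared control, a pooled list was called from all 4, and the final list is what passed an irreproducible discovery rate threshold. The sources used here do not name the aligner, peak caller, threshold or read depth. From the lists on ce11, the signal value deposited by the authors was used to rank peaks within a list, the −log10 q-value deposited by the authors to filter them in an alternative, and the summit for position. Gene starts came from Ensembl release 115 and sequence from RefSeq, both of WBcel235. Lists on ce10 were not used, and 0 columns could not be mapped.

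Replicates were compared with a two-sided exact sign-flip permutation test, tested on simulated data, whose smallest p is 0.125 with 4 replicates and 0.25 with 3. Intervals are exact (Clopper-Pearson) at 95% and cover counting error only. Second copies came from blastn 2.17.0, and the rest from Python 3.11.15 with numpy 2.4.6 and scipy 1.17.1. Named pairs are the 15 strongest members, up to 4 final members of each of 16 gene lists, up to 10 final members within the strongest peaks of all replicates, the 5 with the widest spread of ranks, and the 3 with the shortest and the 3 with the longest distance between starts. Other genes of the lists, and those at the edges of the rule and of the final list, were named after their values were seen. The members and lists were chosen with earlier results of these data known. Density per Mb, its matching on distance, the strong-to-weaker ratio of one-direction peaks, second copies, words other than GAGAGA, RNA gene starts and places in transcripts were added after the lists were seen.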

Additional observations from a re-analysis of the deposited data

Results flagged for a closer look

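For 6 of 27 named members, the rank in 1 replicate stood apart from the other 3 on a log10 scale. The measure is the gap to the nearest other replicate as a part of the whole range of the 4 ranks. Chance alone marks about 1 in 20 groups of unselected values. The named members were chosen partly for strength and for spread of ranks, so that rate does not apply to them. The measure was 1 for F44E5.5/F44E5.4, whose rank was 74 in replicate 4 and 1 in the others. No rank is below 1, so ties there give this value whatever the remaining rank is. It was 0.839 for set-16/drr-2 (rank 1892 in replicate 4), 0.873 for tag-340/nhl-2 (rank 767 in replicate 4) and 0.866 for trap-3/sec-61.B (rank 4825 in replicate 4). It was 0.939 for tsr-2/set-26, which ranked 358, 5413, 422 and 392, and 0.860 for ipla-6/mif-4, which ranked 1272, 337, 316 and 384. The lone replicate was thus replicate 4 in 4 peaks, replicate 2 in 1 and replicate 1 in 1. None of 10 summary measures per replicate was marked.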

How the results depend on the processing

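Of 68 alternatives over 9 results, 62 kept the direction of the difference, or stayed within the error or within 1.5 times the count. Where all replicates shared a sign, leaving 1 of them out could not change the direction, so such alternatives were bound to count as kept. The direction of the distance difference is set by the rule itself. With 4 replicates no test could pass 0.05, so the alternatives say nothing of significance. The share of members in the final list was 7.54% when only the stronger 50% of that list counted, and 100% among the 26 members with a −log10 q of at least 2, all of which rank within the final list. The median distance between starts was 376.5 bp with a window of 500 bp upstream and 100 bp downstream, and 932.5 bp with 2000 bp upstream, as the window bounds it. The GC difference was -0.17 points with flanks 500 bp away, and the GAGAGA difference 0.064 points with 2000 bp upstream. Both also moved by over 1.5 times in other settings: GC to 0.40 points (500 bp upstream), 0.51 points (100 bp to each side) and 0.77 points (2000 bp upstream), and GAGAGA to -2.99 points (500 bp upstream) and -0.88 points (100 bp to each side). The cause was not tested.

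Leaving out 1 replicate at a time, the difference in recovery ran from 2.73 to 5.45 points and that in the share among strong peaks from 5.59 to 6.29 points. The difference in distance ran from -180.7 to -165.5 bp, that in GC from 1.07 to 1.65 points, that in GAGAGA from -0.49 to -0.29 points, and the log2 density ratio from 0.92 to 1.10. The narrower window left 184 members and the wider one gave 498, and the pooled density ratio was 4.22 and 2.16 with them. The replicate tests are on differences within each replicate, so no further pairing was tried. Depth is unknown, and weak members may be background.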
